A study of Mus musculus with 12 samples.

Results

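The genes described here are 43 interferon-stimulated genes and interferon-inducible GTPases of the mouse, taken from a list of gene symbols and found by name in the count files. Of the 43, 42 were matched among the 32285 genes in the files; Mx1 was not matched by name and was not analysed here. By role, the 42 fall into 16 antiviral effectors, 3 sensors of nucleic acids, 5 transcription factors and feedback genes, 3 genes of the PARP9-DTX3L complex and PARP14, 8 guanylate-binding proteins (GBPs) and 7 immunity-related GTPases (IRGs). A filter on low counts left 41 of them in the tests; the other was Oasl1, an oligoadenylate synthetase-like gene, which lay between 0 and 1.41 CPM (UMIs scaled to a common library total) in the 6 libraries.

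The study sorted CD8 T cells from female, prediabetic NOD/ShiLtJ mice, which develop autoimmune diabetes spontaneously, at an age of 10 to 15 wk. IGRP is a beta-cell protein, and a Kd tetramer loaded with the NRP-V7 mimotope of its main epitope marked the reactive cells. Each of 2 experiments, called rounds, pooled 10 mice and gave 3 droplet libraries: tetramer-negative cells of the islets (islet IGRP-), tetramer-positive cells of the islets (islet IGRP+) and tetramer-positive cells of the spleen (spleen IGRP+). RNA and T-cell receptors (TCRs) were read from the same cells, so that each group has 2 libraries, the mouse behind each cell is unknown, and p-values measure the spread between 2 pools. The labels name no treatment and no transgene. Islets were freed from the pancreas with collagenase and hand-picked. They were dissociated without enzymes, and the cells rested in warm medium. Spleens were mashed and their cells enriched for CD8 T cells with beads. The study also describes the sequenced spleen cells as sorted for CD44. Tissue, isolation and this sort therefore cannot be told apart in any comparison of spleen with islets.

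Interferons are cytokines that make cells resistant to infection. Type I interferons signal through their receptor and JAK kinases to genes with interferon-stimulated response elements. Interferon-gamma, which activated T cells release, has a receptor of its own, and IRF1 carries its signal on to further genes. The target genes encode proteins that block viral RNA or trap virions, sensors of foreign nucleic acid, and the GBPs and IRGs, which attack the vacuoles of intracellular pathogens. In NOD islets, interferon-gamma is known as a product of the infiltrating T cells, and beta cells and lymphocytes both respond to it.

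After filters on mitochondrial UMIs and on genes per cell, 24117 of 26818 cells were kept. Islet IGRP- held 6429 and 8932 cells in Rounds 1 and 2, islet IGRP+ 1204 and 1598, and spleen IGRP+ 3524 and 2430. The kept UMIs came to 29153324 and 40469961 for islet IGRP-, 5880696 and 7980997 for islet IGRP+, and 9607921 and 6907642 for spleen IGRP+. The shallowest library, islet IGRP+ of Round 1, thus sets the precision for members of few UMIs. A median cell held 3793 and 3869 UMIs in islet IGRP-, 3800 and 4216.5 in islet IGRP+, and 2590 and 2764.5 in spleen IGRP+. At most 1.03% of the cells of the smaller library shared a barcode with another library, and 0 cells with a shared barcode had the same clone. In every sentence below, 2 values of a group are those of Round 1 and Round 2 in this order.

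The sort was checked against marker genes, and the gene named for a list is the one with the highest mean over the 6 libraries unless a group is given. The 8 markers of CD8 T cells summed to 5390 and 5300 CPM in islet IGRP-, 6790 and 6870 in islet IGRP+, and 7130 and 7080 in spleen IGRP+, with Cd3e the most abundant. The 3 CD4 T cell markers, led by Cd40lg, reached at most 2.05 CPM in any library and the 3 NK cell markers, led by Klra8, at most 2.89. The 6 B cell markers lay between 61.5 and 127 CPM, with Igkc the most abundant and Ighm above it in 3 libraries. The 10 myeloid markers lay between 158 and 200 CPM, nearly all of it from Cst3, and the 5 markers of plasmacytoid dendritic cells, which make type I interferon, lay between 15.6 and 41.1 CPM, led by Irf8. Pancreatic RNA differed between libraries: the 12 exocrine markers, with Ctrb1 the most abundant in islet IGRP- and Prss2 and Cela1 elsewhere, summed to 144 and 482 CPM in islet IGRP-, 62.9 and 178 in islet IGRP+, and 5.62 and 6.52 in spleen IGRP+. The 6 endocrine markers summed to 136 and 10.3 CPM, 5.27 and 13.8 CPM, and 0 CPM in both spleen libraries, where the highest value was almost entirely Ppy.

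A pair of T-cell state gene sets moved with the groups and stand beside every comparison that follows. The 7 naive or memory T cell genes, led by Ccr7 in the islets and Klf2 in spleen, summed to 1710 and 2370 CPM in islet IGRP-, 332 and 622 in islet IGRP+, and 1960 and 2700 in spleen IGRP+. The 7 activated T cell genes, led by Nr4a2 in islet IGRP- and Tigit in islet IGRP+, summed to 1740 and 1760 CPM, 2750 and 3510 CPM, and 630 and 641 CPM in the same order. Islet IGRP+ was therefore lowest in the former and highest in the latter in both rounds. The part of these states in the differences between members was not tested except where a split of the cells is given.

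As a sum, the members took a small and similar share of the RNA in the 3 groups. They held 0.256% (95% Clopper-Pearson interval 0.2545 to 0.2582) and 0.387% (0.385 to 0.3888) of all UMIs in islet IGRP-, 0.217% (0.2131 to 0.2206) and 0.328% (0.3238 to 0.3317) in islet IGRP+, and 0.228% (0.2245 to 0.2306) and 0.311% (0.3071 to 0.3154) in spleen IGRP+. Such intervals cover counting error only. In each group Round 2 was the higher library, and the ranges of the 3 groups overlapped. The share in islet IGRP+ minus that in islet IGRP- was −0.0493 percentage points (means 0.272 and 0.322; −0.0395 and −0.0592 within rounds), with p = 0.667 by a two-sided exact permutation test, whose smallest possible p for 2 against 2 libraries is 0.333. Without islet IGRP+ of Round 1 the difference was 0.0061, and without islet IGRP- of Round 2 it was 0.0159, although within each round it was negative; such a difference sets 1 round of a group against the mean of both rounds. For spleen IGRP+ minus islet IGRP+ the difference was −0.00288 (means 0.269 and 0.272; 0.0107 and −0.0165 within rounds; p = 1 by the same exact permutation test). With the same imbalance of rounds this value turned positive without spleen IGRP+ of Round 1 (0.039) or islet IGRP+ of Round 2 (0.0526).

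The sum hid members that differed in opposite directions. Ifi27l2a, which encodes a small protein of the ISG12 family, gave the most UMIs of all members, with 947 and 1100 CPM in islet IGRP-, 1220 and 1550 in islet IGRP+, and 699 and 781 in spleen IGRP+. Its values did not overlap between groups, with islet IGRP+ the highest and spleen the lowest. Without it, the members summed to 0.162% and 0.277% of UMIs in islet IGRP-, 0.0951% and 0.173% in islet IGRP+, and 0.158% and 0.233% in spleen IGRP+, and spleen IGRP+ then exceeded islet IGRP+ by 0.0614 percentage points. The 15 GTPases alone held 0.0581% and 0.116% in islet IGRP-, 0.0246% and 0.0549% in islet IGRP+, and 0.0472% and 0.0882% in spleen IGRP+. Within each round their share was highest in islet IGRP- and lowest in islet IGRP+, although the rounds overlapped between groups.

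**Figure D1:**
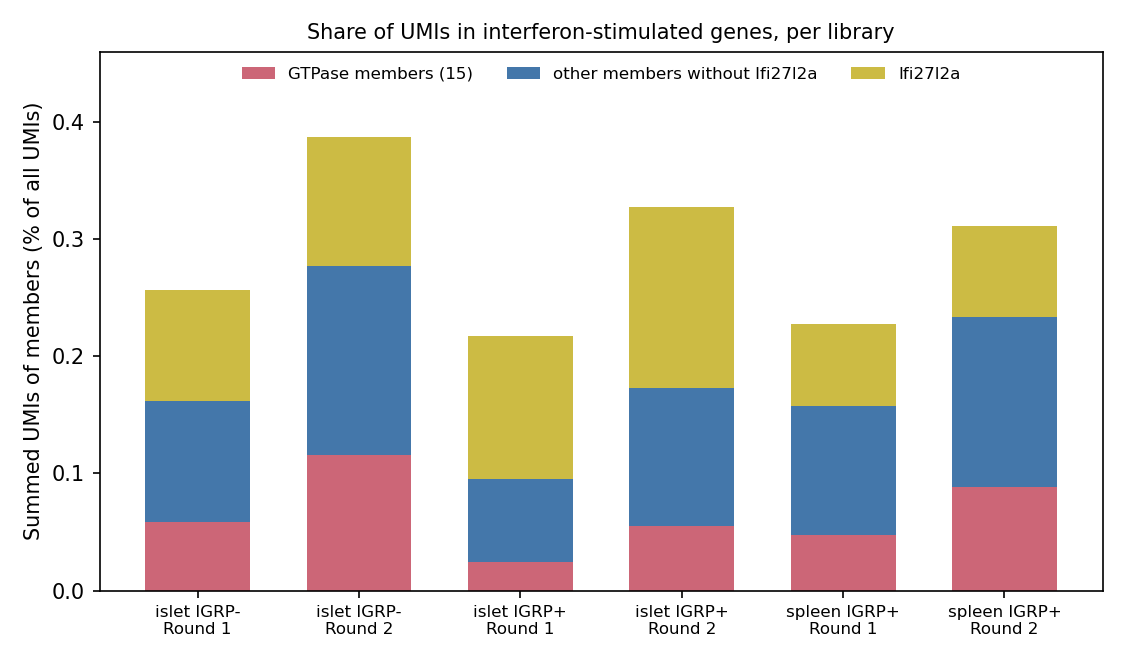
Bars give the percent of all UMIs of each library (vertical axis) that fell on members, split into the 15 GTPases, Ifi27l2a and the remaining members, for the 2 libraries of each of the 3 groups. The whole bars run from 0.217% to 0.387%, Round 2 is higher in each group, and the GTPase part is smallest, at 0.0246%, in islet IGRP+ of Round 1.

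Comparing islet IGRP+ with islet IGRP- cells asks what sets the cells of a known specificity apart from their neighbours in the same tissue. Of the members, the transcription factor Irf1 and the IRG Iigp1 were lower in islet IGRP+, and the remaining GTPases had lower values too, though not past the test that treats the 4 libraries as independent. Irf1 turns on GBP, IRG and antigen presentation genes after interferon-gamma, and Iigp1 is an effector IRG that coats and breaks parasite vacuoles.

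Irf1 stood at 271 and 345 CPM in islet IGRP-, 112 and 155 in islet IGRP+, and 281 and 316 in spleen IGRP+. Both islet IGRP+ libraries lay below all others. Iigp1 had 9.91 and 12.7 CPM (289 and 513 UMIs) in islet IGRP-, 0.17 and 0.501 CPM (1 and 4 UMIs) in islet IGRP+, and 2.19 and 3.62 CPM (21 and 25 UMIs) in spleen IGRP+. Its 3 groups did not overlap, and it was nearly unread in islet IGRP+. Against islet IGRP-, Irf1 fell by 1.22 on the log2 scale (SE 0.18) and Iigp1 by 4.98 (SE 0.41). By edgeR's quasi-likelihood test with Benjamini-Hochberg adjustment over 11277 genes, the adjusted p was 0.0445 for Irf1 and 0.015 for Iigp1, and 2 of 41 members were called lower, against 1.04% of all genes called lower. The same test called 0 members higher, with 0 higher at an unadjusted p under 0.05, and DESeq2 called 0 higher and 8 lower (1.82% of all genes). Over all genes, edgeR called 117 lower and far fewer higher, so 0 members higher was near the background. Each of the 4 islet libraries, when left out in turn, ended both calls: the adjusted p then lay between 0.148 and 0.301 for Irf1 and between 0.0644 and 0.0804 for Iigp1, under the assumption that a lone library varies like the other groups.

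Since both libraries of a round came from the same pool of mice, the round was also fitted as a block. With the block, 21 of 41 members were lower (16.1% of all genes) and 2 were higher (14.4% of all genes). The lower ones included 14 of the 15 GTPases, Gbp3 being the exception. The higher ones were Ifi27l2a (adjusted p = 0.0223 by edgeR with the block; 0.338 without) and Eif2ak2, the kinase PKR that stops translation on double-stranded RNA (0.0457; 0.306 without). In CPM, 32 of 41 members and 15 of 15 GTPases were lower in both rounds, against 38.8% of all genes. The median log2 difference was −0.44 over the members, −1.21 over the GTPases and −0.28 over the other members, beside −0.01 over all genes tested. All 15 GTPases also had values below 0 with DESeq2's size factors, with DESeq2 and with any of the islet libraries left out.

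Large differences were also seen among the IRGs in the T-cell-specific GTPases Tgtp1 and Tgtp2, which were first described in T cells and act on parasite vacuoles. Tgtp1 had 14.8 and 92.3 CPM in islet IGRP-, 0.17 and 2.38 in islet IGRP+, and 2.08 and 16.6 in spleen IGRP+. Tgtp2 had 39.3 and 89.4 CPM, 4.93 and 22.2 CPM, and 23.6 and 49.8 CPM in the same groups. For both genes islet IGRP- exceeded islet IGRP+ in each library, and for both Round 2 was far above Round 1. The log2 difference was −5.27 (SE 1.41) for Tgtp1, with an adjusted p of 0.155 by edgeR and 7.17e-09 with the round as a block, and −2.26 (SE 0.67) for Tgtp2, with 0.182 and 1.79e-06. The transcripts of this pair are close copies, since 78.4% of the 91-base stretches of Tgtp2, over whole transcripts, also occur in Tgtp1. As the libraries read 5′ ends, with longer reads in Round 2, the share of ambiguous reads was not measured. The split of UMIs between the pair is uncertain here and wherever these genes are named below.

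Igtp and the Irgm genes encode IRGs that sit on host membranes and regulate the effector IRGs. Igtp (Irgm3) had 87.5 and 177 CPM in islet IGRP-, 25 and 66.8 in islet IGRP+, and 28.9 and 55.7 in spleen IGRP+. Irgm1, which also acts in autophagy, had 37.8 and 66.5 CPM, 17.5 and 35.7 CPM, and 33.6 and 65.3 CPM. Irgm2 had 16.3 and 27.6 CPM, 5.78 and 12.3 CPM, and 4.37 and 7.09 CPM. For each of these 3 regulators islet IGRP- lay above islet IGRP+ without overlap. The adjusted p by edgeR was 0.199, 0.267 and 0.165 for Igtp, Irgm1 and Irgm2, and 2.70e-06, 6.38e-05 and 6.30e-05 with the round as a block. Ifi47 (Irg47), a further IRG, had 75.6 and 169 CPM in islet IGRP-, 36.7 and 108 in islet IGRP+, and 105 and 248 in spleen IGRP+, so its rounds overlapped between the islet groups.

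The GBPs are large GTPases that assemble on pathogen vacuoles and bacteria and promote inflammasome signalling. Gbp2 had 75.5 and 182 CPM in islet IGRP-, 27.9 and 74.1 in islet IGRP+, and 42.2 and 70.8 in spleen IGRP+. Gbp4 had 58.1 and 75.7 CPM, 25.5 and 43.2 CPM, and 44.2 and 60.4 CPM. Gbp5, known for its part in NLRP3 inflammasome assembly, had 15.6 and 24.3 CPM, 3.91 and 9.02 CPM, and 10.6 and 16.6 CPM. These 3 were lower in both islet IGRP+ libraries than in both islet IGRP- libraries. Gbp6 had 23.7 and 62.8 CPM, 6.97 and 31.1 CPM, and 14.2 and 36 CPM, so Round 2 of islet IGRP+ lay within the islet IGRP- range; 38.1% of its stretches also occur in Gbp10, which makes its counts uncertain. Gbp3 differed least, with 28.1 and 35.6 CPM, 24.3 and 33.6 CPM, and 29.7 and 33.6 CPM. Over the 8 GBPs the median log2 difference was −0.82, and over the 7 IRGs it was −1.55.

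The antiviral effectors showed no common direction between the islet groups. Isg15, a ubiquitin-like modifier, had 69.4 and 131 CPM in islet IGRP- and 70.2 and 119 in islet IGRP+, and spleen IGRP+ was lower with 47.6 and 61.2. Samhd1, which depletes nucleotides needed by viruses, had 164 and 261 CPM, 75 and 150 CPM, and 131 and 204 CPM. Isg15 thus overlapped fully between the islet groups, whereas the Samhd1 values of islet IGRP+ lay below those of islet IGRP- (log2 −0.94, SE 0.32; adjusted p = 0.223 by edgeR, 0.000104 with the block). Oasl2, an oligoadenylate synthetase-like gene, gave 61 and 179 UMIs in islet IGRP- but 0 and 2 UMIs in islet IGRP+, a log2 ratio of −4.58 with a counting interval from −7.63 to −2.71. Zbp1, which senses Z-form nucleic acid and can start cell death, had 58.2 and 85.2 CPM, 46.9 and 59.1 CPM, and 57.6 and 60.9 CPM. Its islet groups overlapped, though islet IGRP+ was lower within both rounds (adjusted p = 0.298 by edgeR, 0.033 with the round as a block). Irf7, the amplifier of type I interferon, had 92.3 and 149 CPM, 74 and 138 CPM, and 96.2 and 133 CPM, and Parp14 and Dtx3l, an ADP-ribosyltransferase and a ubiquitin ligase, overlapped between the islet groups in the same way, at 45.2 and 69.7 against 32.8 and 60.3 CPM and at 30.2 and 44.9 against 21.9 and 37.8 CPM.

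The islet contrast was also read within expanded clones and within Pdcd1+ cells, in sums that hold fewer cells. Among cells in clones of at least 2 cells, edgeR called 0 members higher or lower, and 2 of all genes. At an unadjusted p under 0.05, 0 members were higher and 1 lower. With the round as a block 0 were higher and 2 lower (3.01% of all genes), which were Tgtp2 and Gbp5 and not Irf1 or Iigp1. Among cells with a UMI of Pdcd1, which encodes the inhibitory receptor PD-1, it called 0 members and 0 of all genes. At an unadjusted p under 0.05, 0 members were higher and 4 lower. With the block 0 were higher and 13 lower (6.37% of all genes), 8 of them GTPases. Without the block, 0 members was thus the background outcome in both subsets. The blocked versions were chosen after seeing the data. The median over GTPases was then −0.28 in expanded clones and −0.53 in Pdcd1+ cells, closer to 0 than in all cells.

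Spleen IGRP+ and islet IGRP+ cells were sorted with the same tetramer, so this contrast asks how members differ with tissue, together with isolation and the CD44 sort. The share of unexpanded cells differs too, with 252 and 162 cells of single-cell clones in spleen IGRP+ against 12 and 14 in islet IGRP+. Of the cells with a paired TCR, 632 of 673 and 1134 of 1191 in islet IGRP+ and 1375 of 1660 and 1445 of 1668 in spleen IGRP+ were in clones found in both tissues of the round. Spleen cells had more of the RNA sensor Ifih1, of Ifit2 and Oasl2, of Irf1 and of the GTPases Gbp7 and Iigp1, and less of Isg20 and Ifi27l2a. Ifih1 encodes MDA5, which detects long double-stranded RNA, Ifit2 binds foreign RNA and blocks its translation, and Isg20 is an exonuclease that degrades RNA. Log2 differences ran from 1.01 (SE 0.18) for Gbp7 to 3.62 (SE 0.91) for Oasl2 among the higher members. They were −1.57 (SE 0.21) for Isg20 and −0.99 (SE 0.20) for Ifi27l2a. The Oasl2 value was 2.94 without islet IGRP+ of Round 1. It was 8.06 without islet IGRP+ of Round 2, which leaves 0 UMIs of Oasl2 in that group. The islet IGRP+ libraries are the same as in the comparison of the islet groups, so the 2 comparisons are not independent of each other.

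Isg20 had 28.2 and 38.8 CPM in islet IGRP-, 39.5 and 45.5 in islet IGRP+, and 15.8 and 14.3 in spleen IGRP+. Spleen was below every islet library. Ifit2 had 3.5 and 6.28 CPM, 3.74 and 5.26 CPM, and 17.9 and 26.2 CPM, and Ifih1 had 6.83 and 8.97 CPM, 2.21 and 6.39 CPM, and 11.3 and 15.1 CPM. Both were higher in spleen than in every islet library. Gbp7 had 45 and 59.5 CPM in islet IGRP-, 36.9 and 45.1 in islet IGRP+, and 71.3 and 106 in spleen IGRP+, again without overlap.

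By edgeR's quasi-likelihood test, 6 of 41 members were higher in spleen (12.9% of all genes) and 2 were lower (13.7% of all genes), so the higher count was near the background and the lower count was below it. Adjusted p-values were 0.00617 for Isg20, 0.00736 for Ifit2, 0.00935 for Iigp1, 0.01 for Irf1, 0.0127 for Gbp7, 0.0197 for Ifi27l2a, 0.034 for Oasl2 and 0.0366 for Ifih1. For Oasl2 the spleen gave 31 UMIs against 2, a log2 ratio of 3.70 with a counting interval from 1.73 to 6.81. With the round as a block, 22 members were higher (27.1% of all genes) and 4 lower (28% of all genes), a larger share of members than of genes among the higher ones. In CPM 29 of 41 members were higher in both rounds, against 48.6% of all genes, and the median log2 difference was 0.40 over members, 0.79 over GTPases and 0.23 over the others, beside 0.03 over all genes. In unscaled CPM the median gene was itself 0.12 and 0.14 higher (log2) in spleen, and the fitted differences are relative to that shift.

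Further Ifit genes and several IRGs were called with the block alone. Ifit1, which recognises RNA caps that lack methylation, had 7.13 and 19.9 CPM in islet IGRP-, 2.21 and 12.9 in islet IGRP+, and 14.5 and 26.9 in spleen IGRP+ (adjusted p = 0.228 by edgeR, 0.000419 with the block). Ifit3, its partner protein, had 3.4 and 14.7 CPM, 0.68 and 9.27 CPM, and 14.5 and 23.3 CPM (0.218; 0.00094). Spleen was above islet IGRP+ in both rounds for each of them; as 34.7% of the stretches of Ifit3 also occur in Ifit3b, the counts of that pair are uncertain. Ifi47 (adjusted p = 0.172; 2.92e-06 with the block), Tgtp1 (0.225; 3.76e-06) and Tgtp2 (0.183; 5.14e-05) followed the same order, while Irgm2 was lower in spleen (0.189; 0.00848) and Igtp showed no call in either fit (0.788; 0.37). Rtp4, a receptor transporter with antiviral activity, had 17.9 and 37.7 CPM in islet IGRP-, 8.5 and 27.7 in islet IGRP+, and 28.2 and 44.6 in spleen IGRP+. Oas1a, which makes the 2′-5′ oligoadenylates that activate RNase L, had 5.04 and 12.6 CPM, 10.2 and 14.5 CPM, and 9.58 and 22.1 CPM, with overlap of all groups; 43.2% of its stretches also occur in Oas1g. Eif2ak2 had 5.01 and 7.19 CPM, 7.82 and 10.1 CPM, and 7.6 and 11.7 CPM, so islet IGRP+ and spleen IGRP+ overlapped and islet IGRP- lay below both.

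With a library left out, edgeR called 3 members higher and 1 lower without spleen IGRP+ of Round 1, 2 and 1 without spleen IGRP+ of Round 2, 3 and 1 without islet IGRP+ of Round 1, and 5 and 1 without islet IGRP+ of Round 2, where 4 of the 6 higher calls held. All genes called fell as well, from 3004 to 967, 892, 1672 and 1891 in the same order. Isg20, Ifit2 and Iigp1 were called each time, whereas Oasl2 and Ifi27l2a were called in 0 of the 4 fits. These fits also assume that a lone library varies like the other groups. Among clones found in both tissues 4 members were higher (7.63% of all genes) and 1 lower (8.65%), and with at most 2000 genes per cell in both tissues 5 were higher (10% of all genes) and 4 lower (11%).

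**Figure D2:**
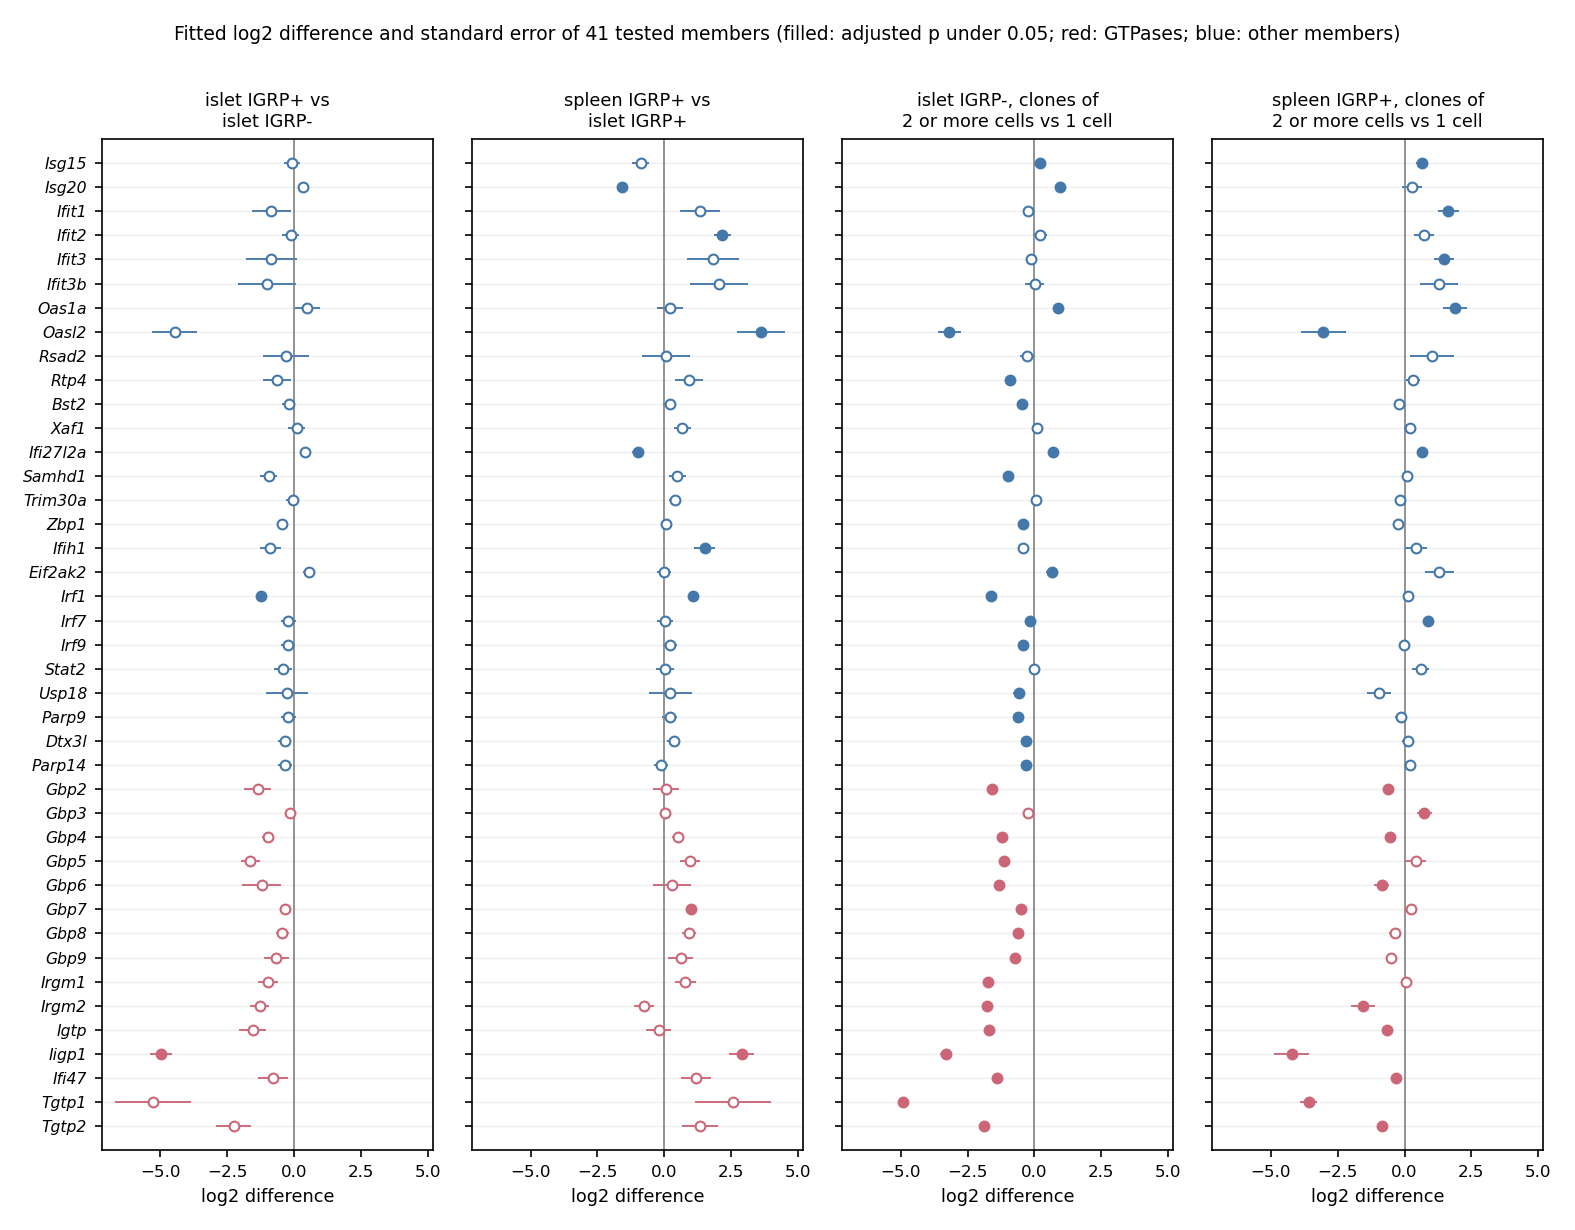
Each panel plots the fitted log2 difference (horizontal axis) of the 41 tested members (vertical axis, GTPases in red, others in blue) with its standard error, filled where the adjusted p was under 0.05, for islet IGRP+ against islet IGRP-, spleen IGRP+ against islet IGRP+, and clones of 2 or more cells against single-cell clones in islet IGRP- and in spleen IGRP+. In the islet clone panel 14 of 15 GTPases are filled and below 0, with Tgtp1 lowest at −4.93.

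Clone size was then compared within a library. A clone was a pair of TCR alpha and beta chains, and cells of clones seen in 1 cell of the library were set against cells of clones of 2 or more, as a measure of how far a T cell had expanded. In islet IGRP-, 1389 and 2959 cells belonged to single-cell clones and 1603 and 2524 to expanded ones; in spleen IGRP+ these were 252 and 162 against 1408 and 1506. Islet IGRP+ had 12 and 14 cells in single-cell clones and was left out of the tests.

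Among islet IGRP- cells, expanded clones had less RNA of nearly all GTPases, of Irf1 and of several antiviral genes, and more of Ifi27l2a, Isg20, Oas1a, Eif2ak2 and Isg15. The GTPase share of UMIs went from 0.0793% in single-cell clones to 0.0357% in expanded ones in Round 1 and from 0.162% to 0.0617% in Round 2. The other members held 0.2% and 0.208% in Round 1 and 0.261% and 0.289% in Round 2, and the summed share of all members differed by −0.0537 percentage points on average (−0.0359 and −0.0716). Without Ifi27l2a the difference was −0.115 (−0.0841 and −0.145), more than the GTPases lost, so the sum of the members other than GTPases and Ifi27l2a was lower as well.

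Irf1 had 401 CPM in single-cell and 157 CPM in expanded clones in Round 1, and 503 and 171 CPM in Round 2, a log2 difference of −1.61 (SE 0.07; adjusted p = 5.63e-19 by edgeR's quasi-likelihood test with the library as a block). In Round 1 it was 401 CPM in single-cell clones, 158 in clones of 2 to 9 cells, 160 in clones of 10 to 49 and 153 in clones of 50 or more. In Round 2 it was 503, 192, 167 and 135 CPM in the same classes. The largest step in both rounds thus lay between clones of 1 cell and the smallest expanded class, and in Round 2 the values went on falling. Tgtp1 went from 28.2 to 0.806 CPM (172 to 7 UMIs) in Round 1 and from 165 to 6.11 CPM (2009 to 78 UMIs) in Round 2, with a log2 difference of −4.93 (SE 0.14). Iigp1 went from 15.4 to 1.96 CPM and from 23.3 to 2.43 CPM (log2 −3.30, SE 0.23). These 2 effector IRGs, together with Oasl2 (4.1 to 0.115 CPM and 7.29 to 1.17 CPM; log2 −3.18, SE 0.42; −2.76 without Round 1 and over 1.5 times as large without Round 2, which leaves 1 UMI in expanded clones), showed the largest differences of the 41 members in this fit.

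The regulatory IRGs and the GBPs were lower by smaller factors. Igtp went from 127 to 47.1 CPM and from 251 to 83.5 CPM (log2 −1.68, SE 0.06), Irgm1 from 52.4 to 16.5 and from 93 to 31.8 CPM (−1.74, SE 0.10), and Irgm2 from 22.5 to 7.71 and from 39.3 to 12.6 CPM (−1.76, SE 0.13). Ifi47 fell from 111 to 52 and from 235 to 90.6 CPM, and Tgtp2 from 58.3 to 17.7 and from 133 to 38.9 CPM. Among the GBPs, Gbp2 fell from 105 to 43.3 and from 264 to 93.5 CPM (log2 −1.57, SE 0.07), Gbp4 from 79.8 to 35.6 and from 100 to 49.8 CPM, Gbp5 from 21.2 to 10.1 and from 33.7 to 17.2 CPM, and Gbp6 from 34.5 to 12.4 and from 81 to 38.3 CPM. In all of these genes both rounds had the same direction, and of them Gbp6 alone had an expanded value in Round 2 above the single-cell value of Round 1. Gbp7 was lower by less, with 46.3 to 40.9 and 66.4 to 47.9 CPM, and Gbp3 did not pass the test (28.7 to 28.2 and 37.9 to 35.2 CPM; adjusted p = 0.0609 by edgeR).

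The members that were higher in expanded islet clones were antiviral effectors and a sensor. Ifi27l2a rose from 760 to 1240 and from 787 to 1530 CPM (log2 0.68, SE 0.07, adjusted p = 1.64e-09 by edgeR). In Round 1 it stood at 1080, 1420 and 1300 CPM in clones of 2 to 9, 10 to 49 and 50 or more cells. The antiviral effectors as a sum, most of it Ifi27l2a, held 0.1465%, 0.1827% and 0.164% of UMIs in these classes in Round 1. In Round 2 they held 0.224%, 0.2019% and 0.2608%, so the order of the classes differed between rounds. Isg20 rose from 21.5 to 37.4 and from 22.9 to 56.1 CPM, Oas1a from 4.1 to 7.37 and from 8.19 to 17.8 CPM, and Eif2ak2 from 3.28 to 5.76 and from 5.73 to 10.1 CPM. Isg15 rose by little, from 62 to 73.9 and from 112 to 152 CPM (log2 0.23, SE 0.07). Samhd1 and Rtp4 went the other way, from 207 to 116 and from 328 to 188 CPM and from 25.8 to 11.6 and from 44.4 to 29.6 CPM, and Zbp1, Dtx3l and Parp14 fell by 0.44, 0.31 and 0.30 on the log2 scale after TMM normalisation. Without that step Dtx3l was level in Round 1, at 30 and 30.7 CPM. Irf7, called lower with a log2 difference of −0.17, had 95.8 and 82.2 CPM in Round 1 but 141 and 153 CPM in Round 2.

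In all, 26 of 41 members were lower in expanded islet clones (21.3% of all genes) and 5 were higher (24.5% of all genes), with the library as a block. The lower members were 14 of 15 GTPases, 4 of 5 transcription factors and feedback genes, Parp9, Dtx3l and Parp14, 4 antiviral effectors and 1 sensor. Median log2 differences were −0.48 over members, −1.41 over GTPases and −0.24 over the others, beside 0.00 over all 10841 genes tested; in unscaled CPM the median gene was 0.17 and 0.14 higher in expanded clones, and the fitted values are relative to that. The GTPase values were also below 0 in 15 of 15 with DESeq2's size factors and with DESeq2. The fit without the block ignores that both classes come from the same library. There, 10 members were lower (3.74% of all genes) and 0 higher by edgeR (2 higher at an unadjusted p under 0.05). Over all genes it called 405 lower and a larger number higher. DESeq2 with the block called 18 lower (4.75% of all genes) and 2 higher (6.33%). With either islet IGRP- library left out, the islet contrast rests on a lone library and its spread comes from the spleen libraries. Such fits cannot show whether calls hold across pools. In them Eif2ak2 was called neither time. Irf7, Usp18 and Parp14 were not called without Round 1, and Isg15 (log2 0.08), Oas1a, Dtx3l and Gbp7 were not called without Round 2.

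Clone size moved together with T-cell state. The 7 naive or memory genes summed to 2800 CPM in single-cell and 547 CPM in expanded islet clones in Round 1 and to 3800 and 813 CPM in Round 2, all 7 being lower, and the 7 activated T cell genes rose from 840 to 2610 and from 827 to 2680 CPM. Exocrine RNA was lower as well, from 144 to 115 and from 754 to 373 CPM, whereas myeloid markers went from 103 to 161 and from 128 to 208 CPM and CD8 T cell markers from 4460 to 6570 and from 4370 to 6450 CPM. The part of these lists in the result was not tested. The islet cells were also split by Pdcd1, a choice made after seeing the data. Among islet cells with a Pdcd1 UMI (244 and 416 cells of single-cell clones, 1019 and 1420 of expanded ones), 11 members were lower (7.59% of all genes) and 2 higher (8.18%), and the GTPase median was −0.71 with 8 of 15 called. Among cells without one (1145 and 2543; 584 and 1104), 24 were lower (18.2% of all genes) and 5 higher (20.1%), and the GTPase median was −1.45. Eif2ak2 (−0.45) and Gbp7 (0.02) changed sign in Pdcd1+ cells.

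**Figure D3:**
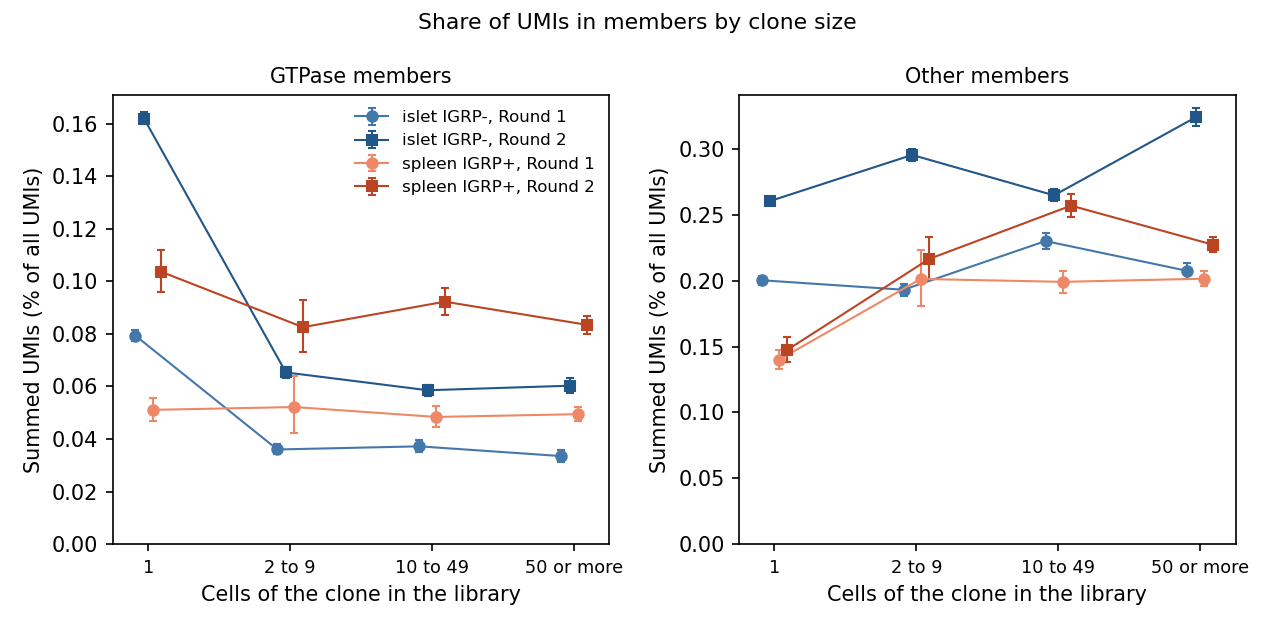
Points give the percent of UMIs (vertical axes) in the 15 GTPases and in the other members by the number of cells of the clone in the library (horizontal axis) for the 4 libraries of islet IGRP- and spleen IGRP+, with 95% Clopper-Pearson intervals. In islet IGRP- the GTPase share steps down from 0.0793% and 0.162% in clones of 1 cell to 0.036% and 0.0654% in clones of 2 to 9 cells, whereas in spleen IGRP+ the other members step up from 0.14% and 0.148%.

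In spleen IGRP+, expanded clones had more of Ifit1, Ifit3, Oas1a, Isg15, Irf7, Ifi27l2a and Gbp3, and less of Oasl2, Iigp1, Tgtp1 and further GTPases. The summed share rose from 0.191% to 0.25% in Round 1 and from 0.251% to 0.322% in Round 2, a mean difference of 0.0648 percentage points (0.0591 and 0.0705; 0.0262 without Ifi27l2a). The members other than GTPases held 0.14% and 0.201% in Round 1 and 0.148% and 0.236% in Round 2, while the GTPases changed from 0.0511% to 0.0493% and from 0.104% to 0.0861%. Only 252 and 162 cells were in single-cell clones, so their low members rest on few UMIs. The expanded cells came from 38 and 57 clones, and 939 and 963 of them from 6 and 7 clones of 50 or more cells. The sums therefore weight a few clones most. With each clone counted once, the summed share differed by 0.0702 percentage points.

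Ifit1 had 7.03 CPM in single-cell and 16 CPM in expanded spleen clones in Round 1 and 4.55 and 31.2 CPM in Round 2 (log2 1.64, SE 0.40; adjusted p = 0.00307 by edgeR). Ifit3 had 4.02 and 17.5 CPM and then 10.6 and 28.7 CPM, and Oas1a had 3.01 and 14.9 CPM and then 6.07 and 23.8 CPM. Irf7 had 45.2 and 111 CPM and then 71.3 and 137 CPM (log2 0.88, SE 0.16; adjusted p = 8.82e-05 by edgeR). For these 4 genes both expanded values lay above both single-cell values. Only Irf7 was still called whichever spleen library was left out, in fits whose spread comes from the islet libraries. Isg15 had 34.1 and 53.4 CPM and then 28.8 and 67 CPM, and Ifi27l2a had 456 and 786 CPM and then 406 and 848 CPM (log2 0.67, SE 0.09; adjusted p = 7.23e-07 by edgeR). Gbp3 was the GTPase called higher, with 13 and 31.4 CPM and then 21.2 and 34.4 CPM (adjusted p = 0.0497 by edgeR), and it was not called with DESeq2's size factors.

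Tgtp1 had 10 and 0.523 CPM (10 and 2 UMIs) in Round 1 and 72.8 and 7.4 CPM (48 and 32 UMIs) in Round 2, with a log2 difference of −3.59 (SE 0.31; adjusted p = 2.70e-11 by edgeR). Iigp1 gave 9 UMIs in single-cell clones of each round and 0 and 6 UMIs in expanded clones (log2 −4.22, SE 0.66; adjusted p = 6.91e-06). In both genes the small single-cell class held more UMIs than the larger expanded class. Igtp had 32.1 and 28 CPM and then 80.4 and 55.2 CPM, Gbp2 had 54.2 and 42.4 CPM and then 84.9 and 65.4 CPM, and Irgm2 had 9.03 and 2.36 CPM and then 10.6 and 5.78 CPM. Gbp4, Gbp6, Tgtp2 and Oasl2 were also called lower. Oasl2 gave only 4 and 5 UMIs in single-cell clones and 1 and 6 UMIs in expanded clones. Ifi47 was called lower as well, while its CPM went from 110 to 117 in Round 1 and from 284 to 244 in Round 2. Irf1, in contrast to its islet values, had 227 and 314 CPM and then 273 and 323 CPM (log2 0.12, SE 0.10; adjusted p = 0.497).

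By count, 7 of 41 members were higher in expanded spleen clones (8.52% of all genes) and 10 were lower (8.43% of all genes), 9 of the latter being GTPases. The median log2 difference was 0.12 over members, −0.53 over GTPases and 0.31 over the others, beside 0.03 over all genes; in unscaled CPM the median gene was 0.31 and 0.20 higher in expanded clones. Without the block 1 member, Iigp1, was lower (2.02% of all genes, adjusted p = 0.0261 by edgeR) and 0 were higher (5 at an unadjusted p under 0.05). Over all genes edgeR without the block called 219 lower and a similar number higher. DESeq2 with the block called 3 higher (2.69% of all genes) and 7 lower (3.65%). With either spleen library left out, fewer members and fewer of all genes were called. There the spleen contrast rests on a lone library and its spread comes from the islet libraries. These fits cannot show whether calls hold across pools. The naive or memory genes summed to 2660 and 1680 CPM in Round 1 and 3600 and 2500 CPM in Round 2, and the activated genes to 135 and 813 and to 171 and 724 CPM, so state moved with clone size here too. Myeloid markers went from 127 to 196 and from 168 to 197 CPM and CD8 T cell markers from 5730 to 7830 and from 5850 to 7370 CPM, and their part was not tested.

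A direct test asked whether the clone-size difference itself differed between spleen IGRP+ and islet IGRP-. For 16 of 41 members it was more positive in spleen (4.44% of all genes) and for 0 more negative (0 at an unadjusted p under 0.05 and 0 by DESeq2, which called 8 more positive, against 1.09% of all genes). Over all genes edgeR's calls went both ways, with 481 of 10841 more positive and a similar number more negative. The 16 members included 10 GTPases, the transcription factors Irf1 and Irf7, and Ifit1, Ifit3, Rtp4 and Samhd1. Irf1 changed by −1.61 in islets and 0.12 in spleen, a difference of 1.73 (SE 0.12; adjusted p = 1.38e-12 by edgeR). Irgm1 changed by −1.74 and 0.04 (difference 1.78, SE 0.20; adjusted p = 5.53e-08 by edgeR). In spleen its CPM went from 29.1 to 39 and from 62.2 to 69.8, and Samhd1 went from 118 to 143 and from 159 to 208 CPM, so in spleen neither gene was lower in expanded clones in either round. The median difference was 0.64 over members and 0.97 over GTPases, beside 0.04 over all genes. Without the block, Irf1 alone was called (0.0646% of all genes, adjusted p = 0.0474 by edgeR). With a library left out fewer members were called, fewest without spleen IGRP+ of Round 2, and fewer of all genes were called too. Such fits leave a lone library in a group, so they do not measure its spread between pools. Antigen specificity, tissue, isolation and the CD44 sort described for spleen go together in this comparison of 2 groups and cannot be told apart.

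The rounds differed in the members throughout. With the group as a block, in a comparison chosen after seeing the data, 30 of 41 members were higher in Round 2 than in Round 1 (16.8% of all genes) and 0 were lower by edgeR (0 at an unadjusted p under 0.05 and 0 by DESeq2, which called 22 higher, against 6.47% of all genes). Tgtp1 was 2.56 higher on the log2 scale (SE 0.14; adjusted p = 1.79e-08 by edgeR), Ifit3 1.42 and Gbp6 1.33, whereas Irf1 (0.11; adjusted p = 0.428) and Ifi27l2a (0.03; adjusted p = 0.868) were not called. Over all 11277 genes the calls went both ways, with 1895 higher and many lower, among them Ifng (log2 −0.41) and Irf2 (−0.28). The median was 0.49 over members and −0.01 over all genes. All 12 exocrine markers were also called higher in Round 2, and in spleen their sum was 5.62 and 6.52 CPM, with 10 of them at 0 UMIs in both rounds. Their part in the result was not tested, and as the study's methods give longer reads for Round 2, mice and reads cannot be told apart.

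The genes upstream of the members were read from a list of 16 interferon receptors, kinases and feedback genes. Between the islet groups, 2 were lower in islet IGRP+ (1.04% of all genes) and 0 higher by edgeR (1 higher and 6 lower with the round as a block, against 14.4% and 16.1%). They were Ifngr2, a subunit of the interferon-gamma receptor, with 42.3 and 50.2 CPM in islet IGRP-, 0.51 and 0.376 in islet IGRP+ and 3.64 and 2.9 in spleen IGRP+ (log2 −6.73, SE 0.34; adjusted p = 0.00647 by edgeR), and Socs1, which inhibits JAK kinases, with 117 and 145 CPM, 44.7 and 67.8 CPM, and 57.3 and 63.6 CPM (log2 −1.23, SE 0.18; adjusted p = 0.0445). Neither gene overlapped between the islet groups. In spleen IGRP+ against islet IGRP+, 2 of the 16 were higher (Ifngr2 and Irf3; 12.9% of all genes) and 6 lower (13.7%), among them Stat3 (log2 −2.86) and Ifngr1 (−1.50), the other receptor subunit. In expanded islet clones 4 were higher, near the background of 24.5% of all genes, and 8 lower (21.3% of all genes), led by Ifngr2 (−5.61), Socs3 (−1.53), Socs1 and Ifngr1 (−0.88). Expanded spleen clones had 4 higher (8.52% of all genes), led by Ifnar2 (0.65), and 4 lower (8.43%), led by Ifngr2 (−4.61), Socs3 (−1.49) and Socs1 (−0.94). The clone-size difference was more positive in spleen for 3 of them (4.44% of all genes), Ifngr1 (0.77), Ifnar2 (0.62) and Jak1 (0.52).

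Of 8 interferon genes, Ifng and Ifnl2 had a UMI and Ifng alone was tested. Ifng had 74.1 and 67.8 CPM in islet IGRP-, 76.7 and 82.6 in islet IGRP+, and 372 and 257 in spleen IGRP+. Its islet groups lay side by side, and spleen stood above both (log2 1.92, SE 0.29; adjusted p = 0.00863 by edgeR). Expanded clones had more Ifng in islet IGRP- (log2 1.32, SE 0.09) and in spleen IGRP+ (2.66, SE 0.14), and the increase was larger in spleen by 1.35 (adjusted p = 1.62e-06 by edgeR). The type I interferon genes Ifnb1, Ifna1, Ifna2, Ifna4 and Ifna5 had 0 UMIs in the 6 libraries.

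A list of 70 other interferon-induced genes, 67 of them found, gave the setting for the members. Between the islet groups edgeR called 0 of 60 tested (4 higher and 14 lower at an unadjusted p under 0.05, beside 835 and 1147 of all 11277 genes; 4 and 18 called with the round as a block, against 14.4% and 16.1% of all genes). Spleen IGRP+ had 20 higher and 2 lower than islet IGRP+ (12.9% and 13.7% of all genes). The largest of the higher ones were Ifi213 (log2 4.15, SE 1.01), Ifi206 (3.75, SE 0.66), Slfn5 (2.79, SE 0.75) and Ifi208 (2.71, SE 0.23). In islet IGRP+, Ifi213 gave 0 and 1 UMIs, Ifi206 1 and 16 and Slfn5 2 and 31, so the size of their differences is uncertain. Of 58 tested, expanded clones had 7 higher and 19 lower in islets (24.5% and 21.3% of all genes). Gbp10 (−2.57), Ms4a4c (−1.63) and Slfn1 (−1.36) were among the largest of the lower ones. Ube2l6 (2.01) and Phf11a (1.54) led the higher ones. In spleen, 13 were higher and 6 lower (8.52% and 8.43% of all genes). Ms4a4c (−2.22) and Ly6a (−1.03) were among the lower, and Ube2l6 (7.62, SE 2.43) and Phf11a (2.88, SE 0.53) led the higher ones. Ube2l6 gave only 28 and 25 UMIs in all spleen IGRP+ cells. The list summed to 4440 and 5790 CPM in islet IGRP-, 3750 and 5300 in islet IGRP+, and 7570 and 10300 in spleen IGRP+, with Shisa5 the most abundant in Round 1 and Ms4a4b in Round 2. The sum was thus higher in both spleen libraries than in any islet library, though not every gene of the list was.

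Members also varied between cells and clones. After each cell was thinned to 1000 UMIs, leaving out 26 to 100 shallower cells per library, 7.5% and 19.6% of islet IGRP- cells had a UMI of at least 5 members, as did 1.95% and 8.81% of islet IGRP+ and 5.19% and 12.8% of spleen IGRP+ cells (55.8% and 73.8%, 42.9% and 64.8%, and 35.1% and 57.9% before thinning, at unequal depth). No cell type that should lack these genes was available as a background. In islet IGRP- such cells were 10.8% and 26.4% of single-cell clones and 4.12% and 10.3% of expanded ones, and in spleen IGRP+ 6.77% and 8.02% against 5.71% and 13.2%. The islet classes kept 1 order in both rounds, and the spleen classes did not. Among clones of 50 or more cells the summed share ran from 0.17% to 0.265% and from 0.252% to 0.677% in islet IGRP-, from 0.114% to 0.251% and from 0.244% to 0.724% in islet IGRP+, and from 0.217% to 0.302% and from 0.235% to 0.417% in spleen IGRP+. In either islet library of Round 2 a single clone set the top of the range, the next ones being at 0.406% and 0.331%. In these 2 clones, of 96 and 52 cells, Ifi27l2a stood at 3660 and 4390 CPM.

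The GTPase members lie in gene clusters. In the GENCODE annotation of GRCm38, Gbp2, Gbp3, Gbp5 and Gbp7 lie within 144 kb on chromosome 3 and Gbp4, Gbp6, Gbp8 and Gbp9 within 280 kb on chromosome 5. Irgm1, Ifi47, Tgtp1 and Tgtp2 span 235 kb of chromosome 11, and Irgm2 and Igtp 23.2 kb further along it, while Iigp1 lies apart from them. Neighbours did not always share their differences: Gbp3 passed no test between islet classes, beside Gbp2 and Gbp5, which were lower in expanded clones.

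Most GTPase promoters held a match to the core of an interferon-stimulated response element. The letters GAAANNGAAA were searched on both strands of the 250 bases before the start of each gene in the RefSeq promoter table of GRCm38.p6, which held 31 of the members. A match was found in 18 of the 31 (58.1%), in 9 of 10 GTPases (90%) and in 9 of the 21 other members (42.9%), against 936 of the 27025 genes in that table (3.46%). The core of a gamma-activated site, TTCNNNGAA, which reads the same on both strands in its fixed letters, was found in 13 of 31 (41.9%), in 6 of the GTPases (60%) and in 8.13% of all genes in the table. A match is a description of the letters and not of binding. The 3 promoters below belong to members with a match and high CPM: Isg15 at chr4:156200819-156201068 on the minus strand, Gbp2 at chr3:142620413-142620662 on the plus strand and Igtp at chr11:58199306-58199555 on the plus strand, each read 5′ to 3′ towards the start given in that table. GENCODE starts Gbp2 inside this window, just before the marked core. Capitals mark the response element core, which occurs 3 times with overlap in Isg15, 78, 72 and 66 bases before the start, once in Gbp2 on the opposite strand, 59 bases before it, and once in Igtp, 34 bases before it.
Isg15: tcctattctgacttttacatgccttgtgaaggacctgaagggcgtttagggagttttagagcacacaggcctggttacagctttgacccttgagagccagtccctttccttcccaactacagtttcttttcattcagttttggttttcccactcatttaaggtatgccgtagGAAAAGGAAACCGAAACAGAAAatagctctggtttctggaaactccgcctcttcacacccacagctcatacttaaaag
Gbp2: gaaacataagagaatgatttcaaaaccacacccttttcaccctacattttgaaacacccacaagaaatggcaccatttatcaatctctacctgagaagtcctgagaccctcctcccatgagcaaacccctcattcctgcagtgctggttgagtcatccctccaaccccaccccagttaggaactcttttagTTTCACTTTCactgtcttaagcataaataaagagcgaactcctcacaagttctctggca
Igtp: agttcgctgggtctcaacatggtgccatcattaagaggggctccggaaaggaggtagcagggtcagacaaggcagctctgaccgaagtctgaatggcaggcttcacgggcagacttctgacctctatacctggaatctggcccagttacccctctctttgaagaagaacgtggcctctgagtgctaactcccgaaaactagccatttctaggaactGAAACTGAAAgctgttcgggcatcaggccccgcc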

How the data were processed

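The authors made 10x 5′ libraries, aligned them to mm10 with Cell Ranger (version 5.0.1 per the file headers) and deposited raw UMI counts per gene and cell for 6 scRNA-seq libraries and contig annotations with read and UMI counts for 6 scTCR-seq libraries. The deposited barcode and gene ID files name the cells and genes of each matrix. Cells with at least 5% mitochondrial UMIs, or outside 200 to 3500 genes in islets and 200 to 2000 in spleen, were left out. A clone was a pair of productive alpha and beta CDR3 nucleotide sequences, from cells with exactly 1 of each. Doublets were not called; leaving out cells with more than 1 productive beta chain was an alternative. Ambient RNA was not removed.

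Counts were summed per library, or per library and clone class, and tested in R 4.3.3 with edgeR 4.0.16 (limma 3.58.1; TMM, filterByExpr, quasi-likelihood F-tests, Benjamini-Hochberg over all genes, adjusted p under 0.05). DESeq2 1.42.0 was an alternative. The fit of the 6 libraries has no block. Rounds pair libraries, because each was 1 pool of mice: deviations from group means correlated over 11277 genes (Pearson r of 0.694, 0.717 and 0.63 for the 3 pairs of groups, across genes, which are not independent replicates). The 8 sums by clone class have the library as a block. The fits were also run on simulated counts, and no result given here rests on that run. CPM have all UMIs kept in a library as the total. The rest ran in Python 3.11.15 (matplotlib 3.10.9; pandas 2.3.3; numpy 2.4.6; scipy 1.17.1).

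The members and gene lists were chosen with earlier results of these data known. Values in every library were given for members with an adjusted p under 0.05 in a main comparison (the 12 largest changes where more passed in 1 direction) and for the 2 members of highest mean CPM in each role; of pathway lists at most the 5 largest changes were named per direction, and of marker lists the most abundant gene. Promoters were printed for 3 such members with a response element core, in order of mean CPM. Gene positions came from GENCODE, which held 32158 of the 32285 gene IDs.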

Additional observations from a re-analysis of the deposited data

Results flagged for a closer look

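For 16 members, the log2 difference between expanded and single-cell clones was not the same in spleen IGRP+ as in islet IGRP-, by the interaction term of edgeR's quasi-likelihood test. Each value below is the spleen difference minus the islet difference, followed by the islet and the spleen difference. Below 0 in both tissues, but by less in spleen, were the GTPases Gbp2 (0.97; −1.57 and −0.60), Gbp4 (0.69; −1.22 and −0.53), Igtp (1.04; −1.68 and −0.64), Ifi47 (1.09; −1.41 and −0.33), Tgtp1 (1.34; −4.93 and −3.59) and Tgtp2 (1.07; −1.90 and −0.83). Below 0 in islet and above 0 in spleen, not each called within a tissue, were the GTPases Gbp3 (0.97; −0.23 and 0.74), Gbp5 (1.58; −1.15 and 0.43), Gbp7 (0.77; −0.51 and 0.26) and Irgm1 (1.78; −1.74 and 0.04). Outside the GTPases the values were Ifit1 (1.86; −0.22 and 1.64), Ifit3 (1.61; −0.13 and 1.48), Rtp4 (1.23; −0.91 and 0.32), Samhd1 (1.06; −0.97 and 0.09), Irf1 (1.73; −1.61 and 0.12) and Irf7 (1.05; −0.17 and 0.88). Irf1 had the smallest adjusted p of the 16 (1.38e-12) and Gbp3 the largest (0.0227). The tissues also differ in tetramer binding, isolation and number of unexpanded cells, and a CD44 sort is described for spleen. These cannot be told apart.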

How the results depend on the processing

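Of the values for whole comparisons under an alternative, 153 held, 78 moved and 8 reversed, and of those for named members 583 held, 163 were weaker and 3 reversed. Between the islet groups, the genes called went from 134 to 3442 with the round as a replicate block, 504 by DESeq2, 711 with no filter on low counts, 24 with the 4 islet libraries alone, 2 in clones of 2 or more cells, 0 in Pdcd1+ cells (445 and 1118 in these with the block) and 0 to 10 with a library left out. Members called higher went from 0 to 2 with the block and stayed at 0 with a library left out, and members called lower from 2 to 21 with the block, 8 by DESeq2, 12 without the filter, 1 with the 4 libraries, 0 in expanded clones, 0 in Pdcd1+ cells (13 with the block) and 0 with any library left out. Between spleen and islet IGRP+, genes called went from 3004 to 6215 with the block, 1622 in clones of both tissues (5094 with the block) and 892 to 1891 with a library left out, members higher from 6 to 22 with the block, 14 without the filter, 20 in clones of both tissues with the block and 2 to 5 with a library left out, and members lower from 2 to 4 with the block, 4 with at most 2000 genes per cell, 1 in clones of both tissues (4 with the block) and 1 with any library left out. For islet IGRP- clone size, genes called went from 4964 to 918 with no replicate block, 1921 by DESeq2, 1590 in Pdcd1+ cells and 2697 to 3598 with a library left out, members higher from 5 to 0 without the block, 2 by DESeq2, 3 with clones of 10 or more cells, 2 in Pdcd1+ cells and 2 to 4 with a library left out, and members lower from 26 to 10 without the block, 11 in Pdcd1+ cells and 23 to 24 with a library left out. Eif2ak2 (−0.45) and Gbp7 (0.02) reversed in Pdcd1+ cells, and Irf7 (0.04) in cells without a Pdcd1 UMI. For spleen clone size, genes called went from 1838 to 460 without the block, 1099 by DESeq2 and 841 to 1140 with a library left out, members higher from 7 to 0 without the block, 3 by DESeq2 and 2 to 4 with a library left out, and members lower from 10 to 1 without the block and 2 to 5 with a library left out. For the difference between tissues in clone size, genes called went from 992 to 14 without the block, 482 by DESeq2 and 362 to 704 with a library left out, and members from 16 to 1 without the block, 8 by DESeq2 and 8 to 15 with a library left out. Between rounds DESeq2 called 2243 genes against 3590. The difference in summed share between islet groups (−0.0493) ran from −0.115 to 0.0159 with a library left out and reversed at 0.0061 and 0.0159. That of spleen minus islet IGRP+ (−0.00288) ran from −0.0583 to 0.0526 and reversed at 0.039 and 0.0526, and also without ribosomal, mitochondrial and TCR genes in the total (0.00548), without Ifi27l2a (0.0614), without an upper gene limit (0.0222) and in clones of both tissues (0.0168). The clone-size difference in share was −0.115 (islet) and 0.0262 (spleen) without Ifi27l2a, and ran from −0.0716 to −0.0359 and from 0.0591 to 0.0705 with a library left out. Fits on fewer libraries or cells have less power by construction. Elsewhere the cause was not tested. With a library left out, a lone library stands for its group and the spread comes from the other groups. Such counts do not show whether a call holds across pools. Blocked fits of cell subsets, the splits by Pdcd1 among islet clones and the comparison of rounds were chosen after seeing the data. With 2 libraries per group and as few as 5880696 UMIs in a library, members of few UMIs, such as Oasl2 and Iigp1 in islet IGRP+, are known least precisely.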
